A study of Mus musculus with 23 samples.

Results

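The genes described here mark the blood vessels of the brain and the cells around them: endothelium, pericytes, vascular smooth muscle, and the fibroblasts of vessel walls and meninges. They were chosen as a list of 35 symbols, and 34 of them matched a gene identifier among the 54232 in the count files, of which 40290 had at least 1 read in some library. The matched members fall into 16 endothelial genes, 6 pericyte genes, 3 smooth muscle genes and 8 fibroblast and collagen genes, with Cspg5 apart. Pdgfra-AS matched no identifier. Cspg5 was listed with mural cells, although it encodes neuroglycan C of neural cells and the NG2 proteoglycan of pericytes is the product of Cspg4.

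Brain endothelial cells form a barrier: tight junction proteins such as claudins seal the gaps between them, and transporters carry glucose and other nutrients across. Pericytes and smooth muscle cells (the mural cells) wrap the endothelium, share a basement membrane with it and regulate vessel tone and stability. Fibroblasts lie around larger vessels and in the meninges and secrete fibrillar collagens and small proteoglycans. Inflamed endothelium displays adhesion molecules that leukocyte integrins bind, among them the products of Icam1 and Vcam1, and activated microglia and astrocytes can make ICAM1 as well.

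The data were RNA-seq read counts of the hippocampus of C57BL/6 mice in 7 groups. At 9 months of age there were 4 libraries of PS19;Lsd1Δ/+ mice, which carry the PS19 transgene and are heterozygous for Lsd1, 4 of PS19 mice, 2 of Lsd1Δ/+ mice without the transgene, and 4 of wild type (WT) mice. At 11 months, after injection of a neuron-specific AAV into the hippocampus, there were 3 libraries of PS19_rescue mice (PS19 with a virus expressing LSD1), 3 of PS19_HA mice (PS19 with the HA control virus) and 3 of WT_HA mice (wild type with the HA control virus). PS19 is a transgene for P301S mutant tau, known to be driven by the prion protein promoter and thus mainly neuronal, and LSD1, encoded by Kdm1a, is a histone demethylase. The virus was described as neuronal, so it was not designed to act in vascular cells, and the Lsd1Δ allele was not described as restricted to any cell type. All virus-injected groups also share the injection and the older age, so age, virus and cohort cannot be told apart between the 2 cohorts. The labels do not say that libraries came from separate animals, so the p-values measure the spread between libraries, part of which may be technical.

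Total counts were 15451494 to 24644977 per library. Kdm1a was measured at 37.3, 36.5, 55.2 and 43.6 CPM (read counts scaled to a common library size) in PS19;Lsd1Δ/+ libraries and 36.9 and 37.0 CPM in Lsd1Δ/+ libraries, against 53.1 to 58.4 CPM in WT libraries. The library labelled PS19;Lsd1Δ/+ replicate 3 was thus at the WT level. Kdm1a reached 10850, 2950 and 1763 CPM in PS19_rescue libraries, against 59.2 to 61.1 CPM in PS19_HA libraries. Prnp, whose promoter construct carries the transgene, was at 1110 to 1818 CPM in all libraries with it and at 605 to 941 CPM in all without it. Mitochondrial genes took 16.1% of the reads of PS19 replicate 3, 33.9% of those of WT replicate 3 and 16.2% of those of WT_HA replicate 2, and at most 6.04% elsewhere. At 9 months the first principal component, with 57.1% of the variance, separated replicates 3 and 4 from replicates 1 and 2 in every group that had both. In bulk tissue, fewer cells of a type and less RNA per cell cannot be told apart.

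All 34 matched members passed the filter on low counts in both cohorts, and none was at 0 in a whole group. On the scale of CPM per kilobase of exon, averaged over the 23 libraries, the highest members were Cspg5 (25.2), the pericyte genes Vtn (22.8) and Rgs5 (22.2), the glucose transporter gene Slc2a1 (22.0) and the claudin gene Cldn5 (17.1). The standard deviations of these 5 overlapped. Icam1 stood at 0.931 (SD 0.785) CPM per kilobase and the smooth muscle gene Tagln at 0.253. Endothelial, pericyte, smooth muscle and fibroblast markers were therefore all present in the hippocampal libraries, with Tagln and the collagen gene Col3a1 (0.267) the lowest.

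The adhesion gene Icam1 was the member that stood out in tau transgenic hippocampus at 9 months, but the call depended on the test: Icam1 averaged 6.90 ± 2.35 CPM in PS19;Lsd1Δ/+ libraries, 7.15 ± 5.64 CPM in PS19 libraries and 1.39 ± 0.811 CPM in WT libraries (SD, n = 4 each). By library Icam1 was at 14.3, 3.36, 1.997 and 8.92 CPM in PS19 libraries, against 1.73, 2.17, 0.272 and 1.39 CPM in WT libraries. PS19 replicate 3, at 1.997 CPM, lay below WT replicate 2, at 2.17 CPM, so the groups overlapped by 1 library, and the WT library at 0.272 CPM rested on 3 reads. In PS19;Lsd1Δ/+ libraries Icam1 was at 10.4, 5.35, 5.62 and 6.23 CPM, all above every WT library, and in Lsd1Δ/+ libraries at 2.02 and 1.57 CPM, within the WT range.

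Icam1 (chromosome 9, bases 21015985 to 21028817, GRCm38, + strand) encodes an immunoglobulin-superfamily protein to which the β2 integrins of leukocytes bind. Its log2 difference in PS19 against WT was 2.33 (SE 0.59), with an adjusted p of 0.249 in edgeR's quasi-likelihood test and of 0.00889 in DESeq2, both adjusted over all genes by Benjamini-Hochberg. In PS19;Lsd1Δ/+ against WT it was 2.28 (SE 0.59), with an adjusted p of 0.379 in edgeR and 0.0195 in DESeq2. These comparisons share the WT libraries. With the replicate number as a block, DESeq2 gave an adjusted p of 0.000328 for PS19 and 3.24e-05 for PS19;Lsd1Δ/+, while edgeR gave 0.119 and 0.0857. When 1 library at a time was left out, DESeq2 kept the call in 5 of 8 fits for PS19 and 2 of 8 for PS19;Lsd1Δ/+, where the other 6 gave 0.0546 to 0.16. Without PS19 replicate 1 the Icam1 difference in PS19 was 1.79 (DESeq2 adjusted p = 0.242); the call was also lost without PS19 replicate 4 (0.117) and without WT replicate 4 (0.0529). Within replicates 1 and 2 alone Icam1 differed by 2.20 in PS19 and 2.01 in PS19;Lsd1Δ/+, and within replicates 3 and 4 alone by 2.64 and 2.72.

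The promoter of Icam1 is printed because Icam1 was the only member DESeq2 called in its unblocked fit, and that of the VEGF receptor gene Kdr because its promoter carries a match to the NF-kB consensus while its level passed no test. Both windows are from RefSeq (GRCm38.p6), 5′ to 3′, from 250 bases before the RefSeq start to 30 bases after it, and such windows were found for 21 of the 34 members.
Icam1, chr9:21015690-21015969, + strand: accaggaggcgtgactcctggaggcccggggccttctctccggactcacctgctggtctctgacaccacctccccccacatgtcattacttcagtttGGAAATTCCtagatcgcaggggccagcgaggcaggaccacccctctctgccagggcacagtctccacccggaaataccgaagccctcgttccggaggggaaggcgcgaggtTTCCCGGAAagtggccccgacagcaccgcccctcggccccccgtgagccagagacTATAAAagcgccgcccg
Kdr, chr5:75978426-75978705, − strand: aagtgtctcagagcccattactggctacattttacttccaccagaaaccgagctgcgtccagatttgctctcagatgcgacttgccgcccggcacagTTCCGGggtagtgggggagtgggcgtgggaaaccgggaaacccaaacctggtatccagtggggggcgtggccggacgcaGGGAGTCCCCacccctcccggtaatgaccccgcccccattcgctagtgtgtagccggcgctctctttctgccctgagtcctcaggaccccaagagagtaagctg
In the Icam1 window the capitals mark, from left to right, GGAANTTCC, a spacing variant of the NF-kB motif that was added after the sequence had been seen, beginning 153 bases before the start; TTCNNNGAA, the STAT-type motif, beginning 42 bases before it; and TATAAA, beginning 13 bases after it. These distances are from the RefSeq start. The GENCODE start of Icam1, base 21015985, lies downstream of the printed window, which ends at base 21015969. Measured from the GENCODE start, every marked motif, TATAAA included, lies upstream. Searched on both strands, GGAANTTCC occurred in 0.928% of 32851 promoter windows of 300 bases, TTCNNNGAA in 8.3% and TATAAA in 13.6%. None of these is particular to Icam1 among the members: GGAANTTCC also occurred in Slc6a13, TTCNNNGAA in Notch3 and Vtn, and TATAAA in 7 members in all (Col3a1, Flt1, Icam1, Ly6c1, Ogn, Slc2a1 and Vtn). The ETS-type motif CCGGAA occurred in Icam1 beginning 86, 65 and 39 bases before the start, the first 2 left in lower case and the last inside the TTCNNNGAA match; 14.9% of all windows held it. In the Kdr window the capitals mark CCGGAA on the other strand, beginning 153 bases before the start, and the NF-kB consensus, beginning 74 bases before it, which 8.46% of all windows held. Among members the NF-kB consensus matched in Abcc9, Flt1, Kdr and Slc6a13, and the interferon-stimulated response element in Vtn alone, against 3.44% of all windows. The CArG box of serum response factor matched in no member window, against 1.63% of all windows. A match describes the sequence and says nothing of binding here.

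Vcam1 and Vwf, the other members tied to activated endothelium, overlapped between PS19 and WT libraries at 9 months. Vcam1 (chromosome 3, bases 116109949 to 116129688), whose product leukocyte integrins also bind, was at 54.7, 24.2, 43.1 and 39.4 CPM in PS19 libraries, against 23.2, 33.2, 31.0 and 25.6 CPM in WT libraries. In PS19;Lsd1Δ/+ libraries Vcam1 was at 48.7, 20.3, 35.3 and 50.4 CPM, replicate 2 lying below every WT library. Vwf (chromosome 6, bases 125546774 to 125686679), which encodes the von Willebrand factor that tethers platelets, was at 27.5, 24.4, 15.4 and 25.8 CPM in PS19;Lsd1Δ/+ libraries, 47.9, 24.5, 9.52 and 17.0 CPM in PS19 libraries and 15.0, 16.1, 3.71 and 13.7 CPM in WT libraries. Of the PS19 libraries, replicate 2 lay within the WT range for Vcam1 and replicate 3 within it for Vwf. Vwf differed by 1.01 on the log2 scale in PS19 against WT (SE 0.45, edgeR adjusted p = 1.0) and by 0.50 without PS19 replicate 1. DESeq2 with the replicate block called Vwf in PS19 (0.95, SE 0.27, adjusted p = 0.031) and in PS19;Lsd1Δ/+ (1.05, SE 0.27, adjusted p = 0.00719), where it called 1.63% of all genes higher in PS19 and 2.63% in PS19;Lsd1Δ/+.

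**Figure D1:**
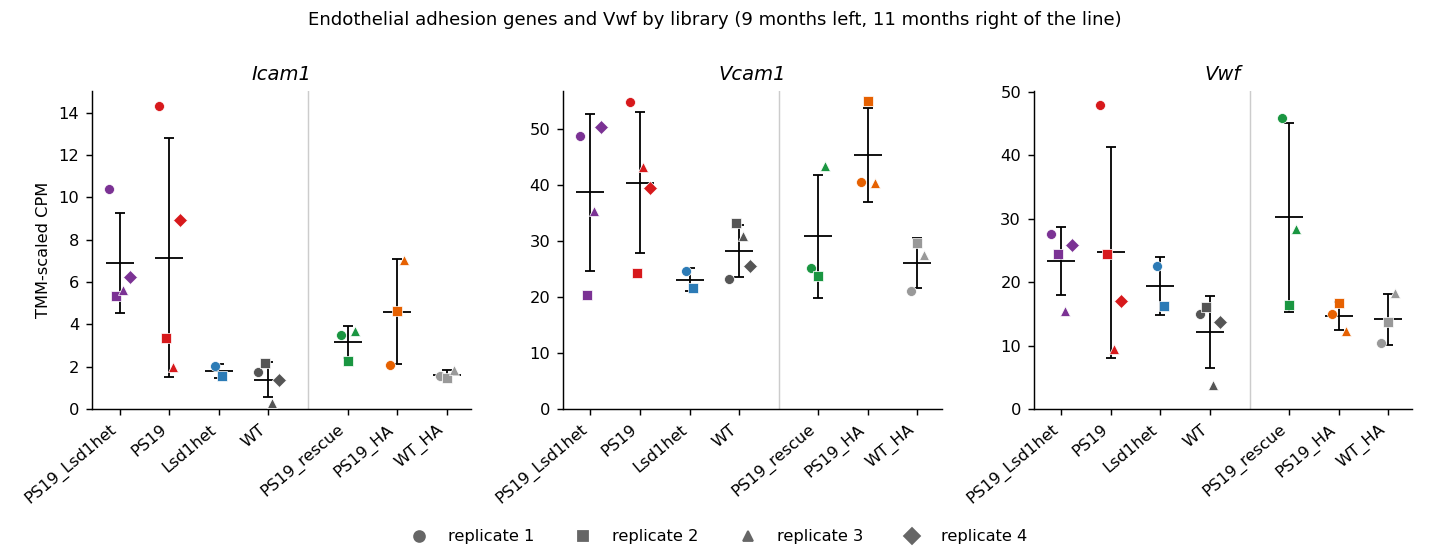
Each point is 1 library, the y axis of each panel is CPM of Icam1, Vcam1 or Vwf, and bars are the mean ± SD of the 7 groups. Icam1 lies between 5.35 and 10.4 CPM in PS19;Lsd1Δ/+ libraries and between 0.272 and 2.17 CPM in WT libraries; at 11 months Icam1 and Vcam1 do not overlap between PS19_HA and WT_HA libraries.

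Across all members, PS19 against WT gave 0 calls in edgeR at an adjusted p under 0.05, where 0.00497% of 20122 genes were called, and 2 members, Icam1 and Vwf, at an unadjusted p under 0.05, where 3.91% of genes were. DESeq2 called 1 member, Icam1, where 0.949% of genes were called. No member was higher or lower without overlap between PS19 and WT libraries; 1.02% of all genes were higher and 0.557% lower without overlap. Of the 34 members, 31 had a log2 difference above 0, with a median of 0.28, against 46.5% of all genes and a median of -0.02. The direction was shared by 16 of 16 endothelial members (median 0.30), 5 of 6 pericyte members (0.21), 3 of 3 smooth muscle members (0.72) and 7 of 8 fibroblast and collagen members (0.25). PS19 replicate 1 was the highest library at 9 months for 12 of 16 endothelial, 3 of 3 smooth muscle, 3 of 6 pericyte and 5 of 8 fibroblast members. Without that library, 22 of 34 members were above 0 with a median of 0.02, and the fibroblast members were above 0 in 2 of 8, with 42.6% of all genes above 0. Endothelial members without it were above 0 in 13 of 16, with a median of 0.11.

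PS19;Lsd1Δ/+ against WT gave 0 calls among the members in edgeR, where 0.00497% of genes were called, and 1 call, Icam1, in DESeq2, where 0.547% of genes were. At an unadjusted p under 0.05 in edgeR, Icam1 and Ly6c1 were higher and Ogn lower, 3 of 34 members where 6.31% of all genes passed. Ly6c1, a glycolipid-anchored protein gene of brain endothelium that belongs to a family of near-identical copies, was at 11.4, 14.4, 15.5 and 17.0 CPM in PS19;Lsd1Δ/+ libraries, against 7.25, 11.0, 3.44 and 10.6 CPM in WT libraries, a log2 difference of 0.86 (SE 0.32, edgeR adjusted p = 0.696). The lowest PS19;Lsd1Δ/+ library, at 11.4 CPM, lay just above the highest WT library, at 11.0 CPM. Icam1 and Ly6c1 were the 2 members higher without overlap, where 3.35% of all genes were (1.05% were lower), and DESeq2 with the replicate block called Icam1, Vwf and Ly6c1 (Ly6c1: 0.91, SE 0.28, adjusted p = 0.0305). Of 16 endothelial members 16 had a difference above 0 (median 0.39), of 8 fibroblast and collagen members 4 did (median -0.02), and of all genes 50.1% did. Leaving out WT replicate 3 left 16 of 16 endothelial members above 0, with a median of 0.23, where 9828 of 20022 genes were above 0.

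Between the groups with the transgene, Ogn was the member that separated Lsd1 heterozygotes from the others. Ogn (chromosome 13, bases 49608046 to 49624501) encodes osteoglycin, a small leucine-rich proteoglycan of fibroblasts. It was at 2.77, 4.32, 0.777 and 5.64 CPM in PS19;Lsd1Δ/+ libraries, against 9.03, 5.69, 13.2 and 5.82 CPM in PS19 libraries. Every PS19;Lsd1Δ/+ library lay below every PS19 library, by a narrow gap of 5.64 to 5.69 CPM, and the lowest value came from the library labelled PS19;Lsd1Δ/+ replicate 3, whose Kdm1a was at the WT level. The log2 difference of Ogn was -1.33 (SE 0.54, edgeR adjusted p = 1.0), and without that library -1.005 (SE 0.47, edgeR adjusted p = 1.0). In this comparison edgeR called 0 members, where it called 0.0% of genes. DESeq2 also called 0, where it called 0.00497%. Ogn was the 1 member past an unadjusted p of 0.05 in edgeR, where 1.25% of all genes passed, and the 1 member lower without overlap, where 0.268% of all genes were lower and 0.388% higher. Of 34 members 12 had a difference above 0 in PS19;Lsd1Δ/+ against PS19, where 47.4% of all genes did, and 0 of 8 fibroblast and collagen members did (median -0.34). Without PS19 replicate 1 these were 27 of 34 and 4 of 8, with a median of 0.29 over the members. In that fit 10497 of 19988 genes were above 0.

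Loss of 1 Lsd1 copy without the transgene, measured in 2 libraries, gave 0 calls among the members in edgeR, where 0.0% of genes were called, and 0 in DESeq2, where 0.00497% were. No member passed an unadjusted p of 0.05 in edgeR, where 1.28% of all genes did, and 21 of 34 had a difference above 0 (median 0.17), where 49.0% of all genes did. Without Lsd1Δ/+ replicate 1 the number above 0 was 15. Within replicates 1 and 2 alone it was 16 (median -0.02), where 9560 of 18931 genes were above 0. Ly6c1 and Vwf were higher and Ly6a and Ogn lower without overlap, where 5.37% of all genes were higher and 5.8% lower. Vwf was at 22.6 and 16.2 CPM in Lsd1Δ/+ libraries, against a highest WT library of 16.1 CPM (log2 difference 0.64, SE 0.53). Ly6c1 was at 11.7 and 12.6 CPM in Lsd1Δ/+ libraries, against a highest WT library of 11.0 CPM (0.55, SE 0.38). The gap between the groups was thus narrow for both genes. Ly6a, another member of the Ly6 family with near-identical copies, was at 2.02 and 1.35 CPM in Lsd1Δ/+ libraries, against 3.41, 2.61, 4.44 and 6.17 CPM in WT libraries (log2 difference -1.36, SE 0.67, edgeR adjusted p = 0.805). Ogn was at 3.41 and 3.37 CPM in Lsd1Δ/+ libraries, against 4.23, 5.09, 13.6 and 9.98 CPM in WT libraries (-1.35, SE 0.70, edgeR adjusted p = 0.805). The 2 Lsd1Δ/+ libraries are replicates 1 and 2, and the highest WT values of both genes came from replicates 3 and 4. The interaction of tau transgene and Lsd1 allele, which asks whether the Lsd1 effect differed with the transgene, was called for 0 members by edgeR, where 0.0% of genes were called, and 0 of 34 members passed an unadjusted p of 0.05, where 0.835% of genes did. The interaction of Icam1 was -0.36 (SE 0.90, edgeR adjusted p = 0.999). DESeq2 called 0 members, where it called 0.00994% of genes. Of the 34 members 8 had an interaction above 0, where 52.4% of all genes did. Without PS19 replicate 1 this count was 21, where 11154 of 19988 genes were above 0. With the replicate block it was 18, where 10244 of 20122 genes were.

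**Figure D2:**
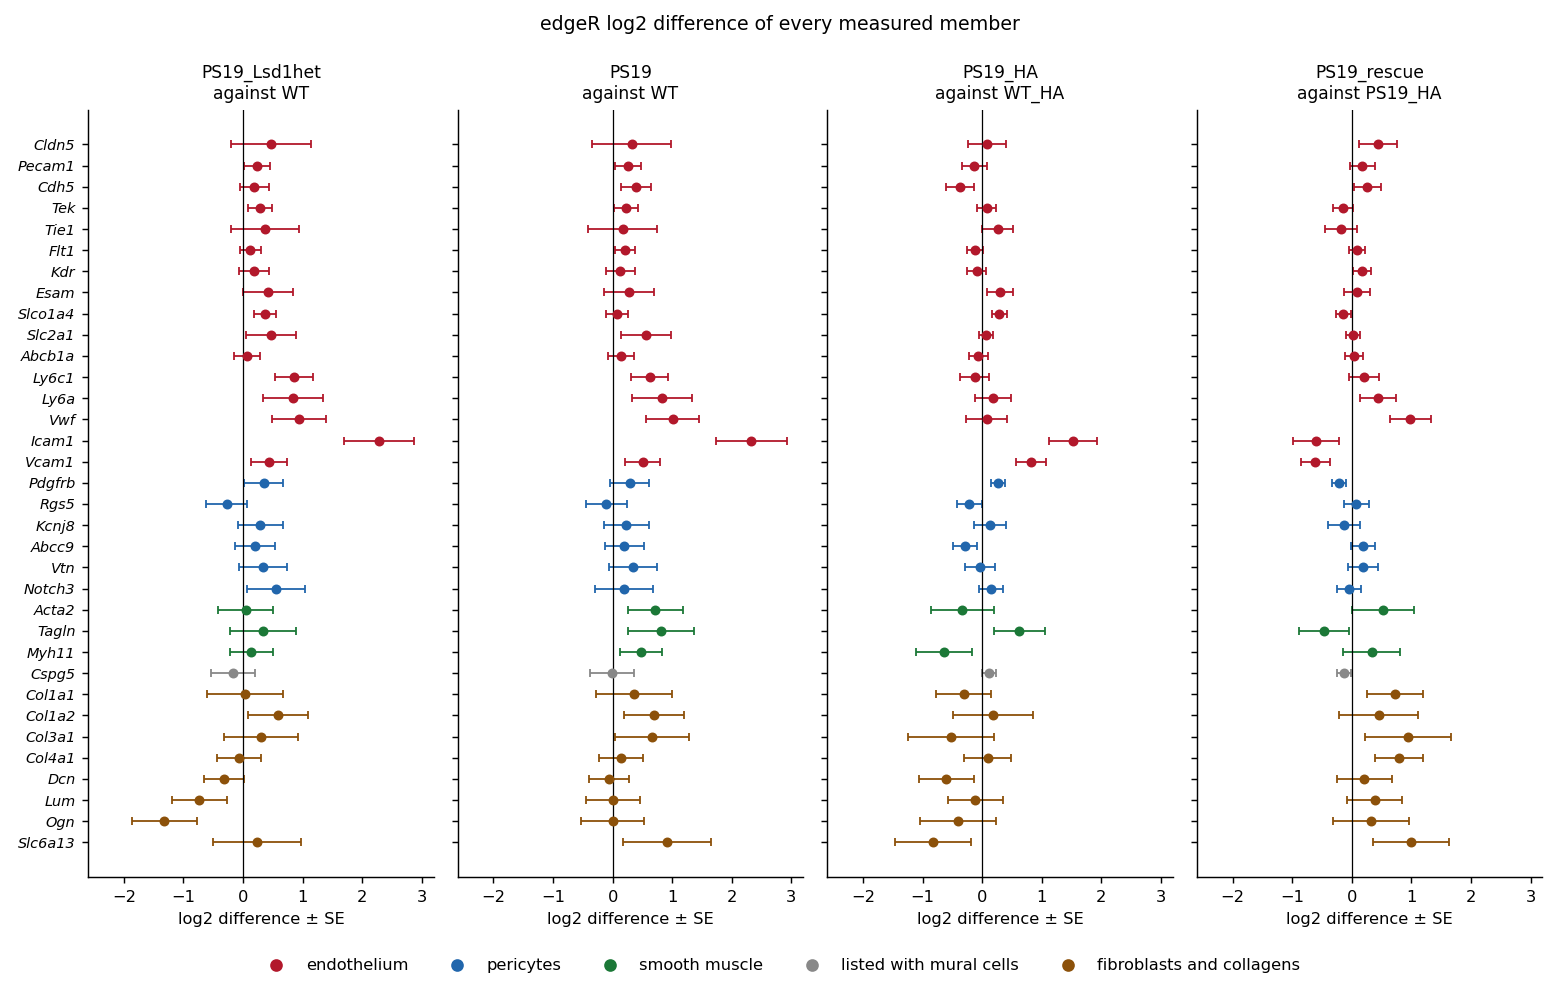
Each point is the edgeR log2 difference of 1 member with its SE as the bar, members down the page by class, with 1 panel for each of PS19;Lsd1Δ/+ against WT, PS19 against WT, PS19_HA against WT_HA and PS19_rescue against PS19_HA. Icam1 stands at 2.28, 2.33 and 1.53 in the first 3 comparisons and at -0.60 in the last.

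At 11 months, with the control virus, Icam1 and Vcam1 lay above the control in every transgenic library. Icam1 was at 2.09, 4.65 and 7.04 CPM in PS19_HA libraries, against 1.54, 1.46 and 1.85 CPM in WT_HA libraries. Vcam1 was at 40.5, 55.0 and 40.4 CPM in PS19_HA libraries, against 21.1, 29.7 and 27.4 CPM in WT_HA libraries. Neither gene overlapped between the groups; Icam1 varied widely among PS19_HA libraries (4.59 ± 2.48 CPM, against 1.62 ± 0.203 CPM in WT_HA libraries), while Vcam1 averaged 45.3 ± 8.43 CPM there and 26.1 ± 4.48 CPM in WT_HA libraries (SD, n = 3 each). The log2 difference of Icam1 was 1.53 (SE 0.41, edgeR adjusted p = 0.454, DESeq2 adjusted p = 0.0633) and that of Vcam1 0.82 (SE 0.25, edgeR adjusted p = 0.454, DESeq2 adjusted p = 0.156). With the replicate block DESeq2 called both, Vcam1 at an adjusted p of 0.0265 and Icam1 at 0.0347, where it called 1.11% of all genes higher. The unblocked DESeq2 test called Icam1 only without PS19_HA replicate 1, at an adjusted p of 6.74e-05, and gave 0.114 to 0.416 with any other library left out.

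In the same comparison edgeR and DESeq2 called 0 members, where they called 0.0156% and 0.622% of 19290 genes. Besides Icam1 and Vcam1, the organic anion transporter gene Slco1a4 (log2 difference 0.29, SE 0.12) and Pdgfrb, the PDGF receptor of pericytes (0.27, SE 0.12), passed an unadjusted p of 0.05 in edgeR, 4 of 34 members where 8.63% of all genes passed. Pdgfrb was at 21.5, 22.5 and 24.4 CPM in PS19_HA libraries, against 20.5, 18.9 and 18.4 CPM in WT_HA libraries. Icam1, Vcam1 and Pdgfrb were the 3 members higher without overlap, where 6.32% of all genes were higher and 7.76% lower. Differences lay above 0 for 17 of 34 members (median 0.01), 10 of 16 endothelial members (0.08) and 2 of 8 fibroblast and collagen members (-0.36), beside 50.5% of all genes. The fibroblast count turned to 6 of 8 (median 0.06) without WT_HA replicate 2, where 9845 of 19800 genes were above 0. That library had 16.2% mitochondrial reads and was the highest at 11 months for Dcn, Myh11, Rgs5, Abcb1a and Cdh5. The tau effect at 11 months minus that at 9 months was called by edgeR for 0 members, where 0.0% of 20931 genes were called, and by DESeq2 for 0, where 0.0% were. Of 34 members 5 had a difference between cohorts above 0, where 53.9% of all genes did. Without PS19 replicate 1 this count was 14, where 52.6% of all genes were above 0. Cdh5, the gene of the endothelial adherens junction cadherin, was the 1 member past an unadjusted p of 0.05 (-0.77, SE 0.36, edgeR adjusted p = 1.0), where 0.569% of all genes passed. The tau effect on Icam1 differed between cohorts by -0.80 (SE 0.78, edgeR adjusted p = 1.0).

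Viral LSD1 in PS19 mice gave no call among the members against the control virus. edgeR called 0 members, where it called 0.0% of genes, and DESeq2 called 0, where it called 0.0156%. Icam1 was at 3.49, 2.29 and 3.69 CPM in PS19_rescue libraries, against 2.09, 4.65 and 7.04 CPM in PS19_HA libraries, a log2 difference of -0.60 (SE 0.39, edgeR adjusted p = 1.0). Every PS19_rescue library of Icam1 lay above every WT_HA library, with a log2 difference of 0.93 (SE 0.41, edgeR adjusted p = 0.864). Vcam1 was at 25.2, 23.8 and 43.5 CPM in PS19_rescue libraries, against 40.5, 55.0 and 40.4 CPM in PS19_HA libraries. The first 2 PS19_rescue libraries of Vcam1 were within the WT_HA range and the third within the PS19_HA range. The log2 difference of Vcam1 from PS19_HA was -0.61 (SE 0.25, edgeR adjusted p = 1.0), and without PS19_rescue replicate 3 it was -0.94 (edgeR adjusted p = 1.0). Against WT_HA, which PS19_HA and PS19_rescue share as control, Vcam1 in PS19_rescue differed by 0.21 (SE 0.25).

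Vwf ran the other way in the same libraries. Vwf was at 45.8, 16.4 and 28.4 CPM in PS19_rescue libraries, 15.0, 16.7 and 12.3 CPM in PS19_HA libraries and 10.4, 13.8 and 18.3 CPM in WT_HA libraries. PS19_rescue replicates 1 and 3 exceeded all other 11-month libraries for Vwf and replicate 2 lay among them. The log2 difference of Vwf from PS19_HA was 0.98 (SE 0.35, edgeR adjusted p = 1.0), and 0.56 without PS19_rescue replicate 1. Vcam1 and Vwf were the 2 of 34 members past an unadjusted p of 0.05 in edgeR, where 1.81% of all genes passed, and 0 members separated without overlap, where 8.0% of all genes were higher and 1.87% lower. PS19_rescue replicate 1 was also the highest 11-month library for Cldn5, Esam, Flt1, Ly6a, Ly6c1, Slc2a1 and Col4a1, and had the highest Kdm1a, at 10850 CPM. Col4a1, which encodes a chain of basement membrane collagen, was at 170.4, 65.9 and 56.6 CPM in PS19_rescue libraries, against 61.1, 65.7 and 35.6 CPM in PS19_HA libraries (log2 difference 0.79, SE 0.40, edgeR adjusted p = 1.0). Against WT_HA edgeR and DESeq2 called 0 members in PS19_rescue, where they called 0.0207% and 0.0881% of genes, and Vwf and Icam1 were 2 of 34 members past an unadjusted p of 0.05 in edgeR, where 4.01% of genes passed. Cldn5 and Icam1 were the 2 members higher without overlap, where 6.86% of genes were higher and 3.91% lower. Cldn5, the tight junction claudin gene of brain endothelium, was at 23.7, 17.9 and 19.2 CPM in PS19_rescue libraries, 12.6, 10.7 and 20.02 CPM in PS19_HA libraries and 17.1, 7.73 and 16.9 CPM in WT_HA libraries.

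No pericyte gene passed an adjusted test in any comparison. Rgs5, a regulator of G protein signalling and a standard pericyte marker, averaged 87.7 ± 20.3 CPM in PS19;Lsd1Δ/+ libraries, 97.9 ± 24.7 CPM in PS19 libraries and 103.7 ± 44.7 CPM in WT libraries (SD, n = 4 each). Vtn, which encodes vitronectin, averaged 52.4 ± 16.2 CPM in PS19;Lsd1Δ/+ libraries, 53.3 ± 31.9 CPM in PS19 libraries and 41.5 ± 19.4 CPM in WT libraries. The SD of Rgs5 and Vtn exceeded the differences between these means. The channel genes Kcnj8 and Abcc9, whose products assemble into the KATP channel of mural cells, and the receptor gene Notch3 had log2 differences of 0.19 to 0.23 in PS19 against WT, each smaller than its SE. In PS19_HA against WT_HA the differences of Kcnj8, Abcc9 and Notch3 were 0.13, -0.28 and 0.15, and 3 of 6 pericyte members lay above 0. Cspg5 was between 144.6 and 456.2 CPM at 9 months and between 160.3 and 219.4 CPM at 11 months, with no difference past an unadjusted p of 0.05 in any comparison.

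The replicate numbers separated the 9-month libraries for about the same share of the members as of all genes in the lower direction, and for a smaller share in the higher. Over PS19;Lsd1Δ/+, PS19 and WT libraries together, Cldn5 (chromosome 16, bases 18776847 to 18778262) was at 2.99 to 22.5 CPM, median 14.2, in the 6 libraries of replicates 3 and 4, against 36.9 to 48.1 CPM, median 41.0, in the 6 libraries of replicates 1 and 2. Tie1, an endothelial receptor tyrosine kinase gene, was at 3.08 to 9.39 CPM against 15.5 to 21.9 CPM, and Col1a1, a fibrillar collagen chain gene, at 4.17 to 5.16 CPM against 10.6 to 31.2 CPM. Cldn5, Tie1, Slc2a1, Col1a1, Notch3, Vtn and Pdgfrb were lower in replicates 3 and 4 without overlap, 7 of 34 members, and Rgs5 was higher, at 95.5 to 157.1 CPM against 54.9 to 82.4 CPM. Over all genes 18.4% were lower and 12% higher without overlap, so the separation is not particular to the members, of which the other 26 overlapped. The extremes came from the libraries high in mitochondrial reads: Cldn5 was at 5.86 CPM in PS19 replicate 3 and 2.99 CPM in WT replicate 3, Tie1 at 3.46 CPM in PS19 replicate 3 and 3.08 CPM in WT replicate 3, and Rgs5 at 129.5 CPM in PS19 replicate 3 and 157.1 CPM in WT replicate 3. In the other 4 libraries of replicates 3 and 4 Cldn5 was at 13.0 to 22.5 CPM, still below every library of replicates 1 and 2. The labels do not say what the replicate numbers mark, and the 2 Lsd1Δ/+ libraries are both from the first set. Within replicates 1 and 2 alone, 32 of 34 members were above 0 in PS19 against WT (median 0.43), where 9635 of 18931 genes were. That set holds PS19 replicate 1, the highest 9-month library for 12 of 16 endothelial members. Within replicates 3 and 4 alone, 28 of 33 members were above 0 (median 0.12), where 9308 of 18222 genes were.

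**Figure D3:**
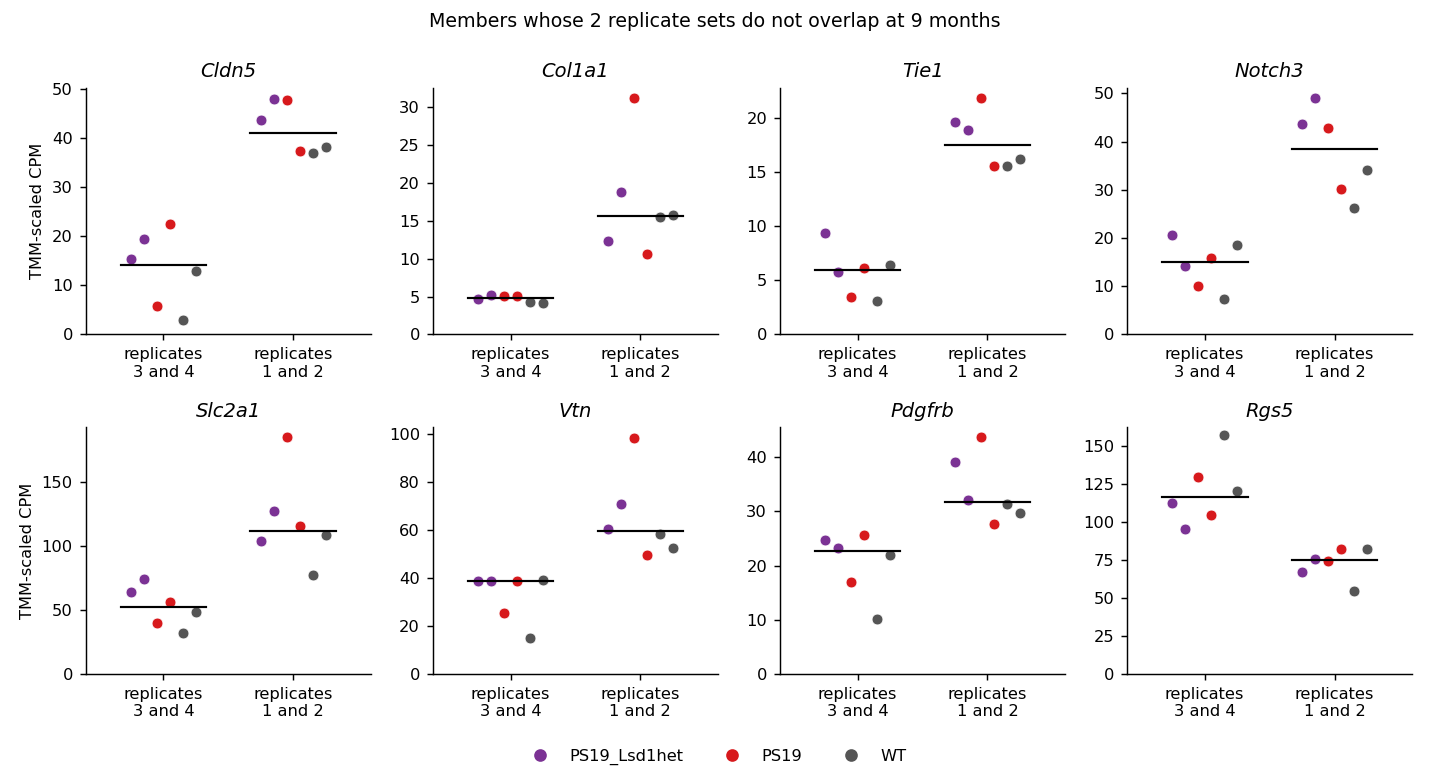
Each point is 1 of 12 libraries at 9 months, the y axis is CPM on a linear scale, and bars are medians. The 8 members are shown in replicates 3 and 4 on the left and replicates 1 and 2 on the right. Cldn5, Tie1, Slc2a1 and Col1a1 are among the 7 members lower in replicates 3 and 4, and Rgs5 is the 1 that is higher.

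For several smooth muscle and fibroblast genes 1 library stood above the rest of its group. Acta2, the gene of smooth muscle actin, was at 18.2, 4.98, 5.33 and 4.36 CPM in PS19 libraries, against 2.93, 7.39, 4.16 and 4.99 CPM in WT libraries. Col1a2, a fibrillar collagen chain gene, was at 30.2, 8.56, 9.85 and 8.97 CPM in PS19 libraries. Slc6a13, a GABA and taurine transporter gene of fibroblasts and meninges, was at 30.9, 4.39, 3.66 and 6.87 CPM in PS19 libraries, against 10.04, 6.95, 1.45 and 5.32 CPM in WT libraries. For these 3 genes, picked after their values had been seen, PS19 replicate 1 stood above the other 3 PS19 libraries. Other fibroblast members did not share this: Dcn, the gene of the proteoglycan decorin, was at 21.3 CPM in PS19 replicate 1 and 36.0 to 50.4 CPM in the other PS19 libraries, Col4a1 was at 94.4 and 93.9 CPM in PS19 replicates 1 and 2, and Dcn, Lum and Ogn were highest in WT replicate 3. Acta2 differed by 0.72 (SE 0.46), Tagln by 0.81 (SE 0.55) and Myh11, the smooth muscle myosin gene, by 0.48 (SE 0.36) in PS19 against WT, all with an edgeR adjusted p of 1.0. Without PS19 replicate 1 the median of Acta2, Tagln and Myh11 was 0.01 in place of 0.72.

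At 11 months PS19_rescue replicate 3 was the highest library for Col1a1, Col1a2, Col3a1, Lum, Ogn and Slc6a13, 6 of the 8 fibroblast and collagen members, and for 1 of 3 smooth muscle members, Acta2. Col1a2 was at 6.32, 8.86 and 34.8 CPM in PS19_rescue libraries, against 9.88, 13.0 and 12.5 CPM in PS19_HA libraries and 3.37, 15.9 and 12.2 CPM in WT_HA libraries. Col3a1 was at 1.65, 1.91 and 8.32 CPM in PS19_rescue libraries, and Slc6a13 at 3.60, 3.66 and 14.8 CPM. PS19_rescue replicates 1 and 2 were thus below every PS19_HA library for Col1a2. In PS19_rescue against PS19_HA, 24 of 34 members had a difference above 0 (median 0.18) and 8 of 8 fibroblast and collagen members did (median 0.59), beside 48.2% of all genes. Without PS19_rescue replicate 3 these were 15 of 34 (median -0.04) and 2 of 8 (median -0.09), with 9210 of 19666 genes above 0. The list of 15 further fibroblast and meningeal genes had 6 of 15 above 0 (median -0.19) in the same comparison, and its sums were 147, 150 and 282 CPM in PS19_rescue libraries, against 213, 229 and 220 CPM in PS19_HA libraries. In PS19_rescue against WT_HA, 23 of 34 members (median 0.09) and 6 of 8 fibroblast and collagen members (median 0.34) were above 0, beside 50.3% of all genes. Leaving out PS19_rescue replicate 3 gave 9 of 34 (median -0.11) and 1 of 8 (median -0.47), with 9369 of 19666 genes above 0.

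**Figure D4:**
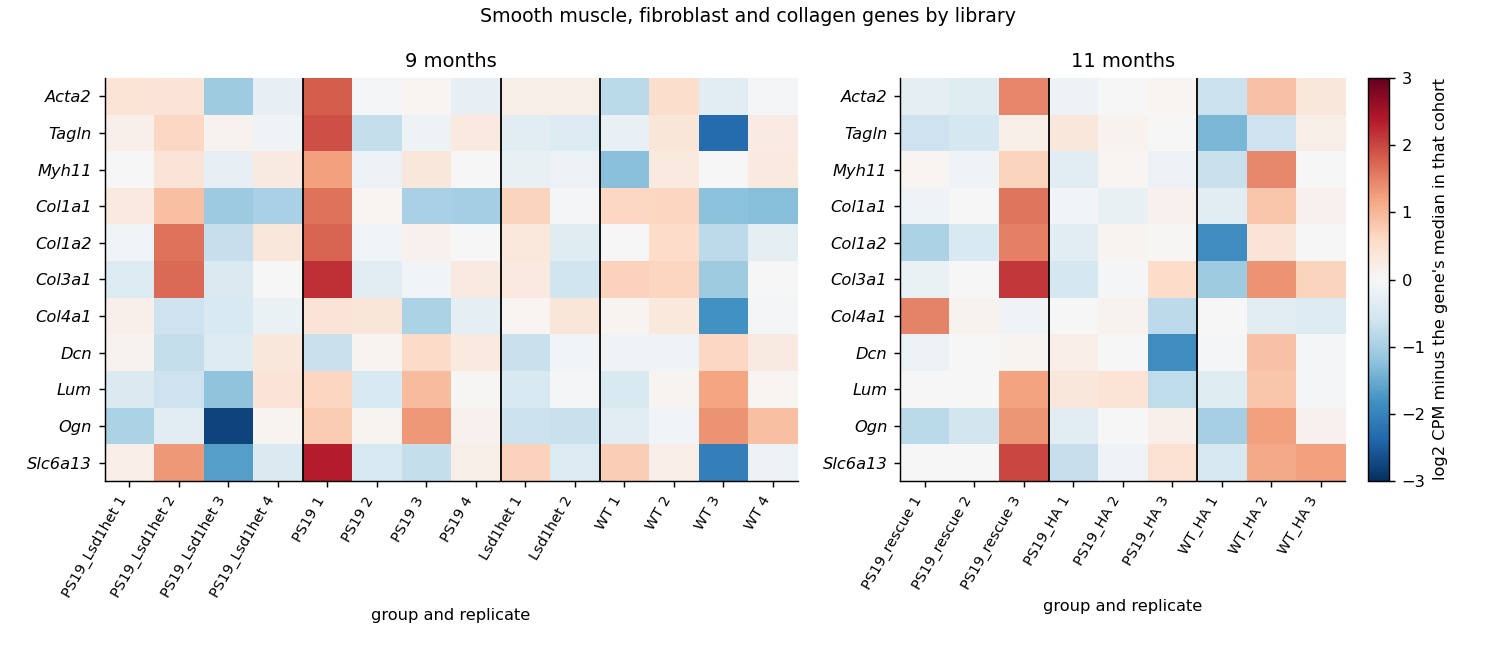
The colour of each cell is the log2 CPM of 1 smooth muscle or fibroblast and collagen member in 1 library, minus the median of that gene over its cohort. PS19 replicate 1 is the highest 9-month library for 3 of 3 smooth muscle and 5 of 8 fibroblast members, and PS19_rescue replicate 3 the highest 11-month library for 6 of 8 fibroblast members.

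Markers of neighbouring tissue were present unevenly in these libraries. The summed level of 8 choroid plexus epithelium genes was 1890, 48.2, 50.2 and 3360 CPM in PS19;Lsd1Δ/+ libraries, 1650, 1050, 2320 and 288 CPM in PS19 libraries and 73.6, 2250, 613 and 185 CPM in WT libraries. At 11 months it was 107, 187 and 2110 CPM in PS19_rescue libraries, 3200, 3570 and 387 CPM in PS19_HA libraries and 46.3, 139 and 972 CPM in WT_HA libraries. PS19_rescue replicate 3, the library high in fibroblast genes, was the highest of its group in choroid plexus genes, whereas PS19_HA replicates 1 and 2 were higher still. The fibroblast and collagen members summed to 240, 145 and 215 CPM in PS19_rescue libraries, 170.4 CPM of the first being Col4a1, against 148, 153 and 87.9 CPM in PS19_HA libraries. At 9 months that sum was 230, 163, 127 and 133 CPM in PS19 libraries, against 152, 169, 105 and 142 CPM in WT libraries. A list of 15 further fibroblast and meningeal genes summed to 419, 280, 154 and 171 CPM in PS19 libraries, against 234, 349, 86.5 and 146 CPM in WT libraries, so PS19 replicate 1 was the highest PS19 library on both lists. PS19 replicate 1 was also the highest 9-month library for the summed microglia (1400 CPM), astrocyte (6960 CPM) and interferon response genes (316 CPM). It was not the highest for activated microglia genes, at 354 CPM against 628 CPM in PS19 replicate 4. Its hippocampal neuron genes summed to 763 CPM, against 937, 1810 and 1080 CPM in the other PS19 libraries. Red blood cell genes summed to between 18.0 and 107 CPM in every library. Their part in the differences above was not tested.

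Other vascular genes, taken from lists of the same roles, gave few calls. DESeq2 called 0 of 14 barrier transport and junction genes in PS19 against WT (12 above 0, median 0.17), 0 of 18 angiogenic ligand and receptor genes (13 above 0, median 0.15), 0 of 14 vascular basement membrane genes (14 above 0, median 0.24) and 0 of 11 further mural genes (9 above 0, median 0.24), where it called 0.949% of all genes and 46.5% lay above 0. In PS19_HA against WT_HA the same 4 lists had 11 of 14, 8 of 18, 10 of 14 and 4 of 10 genes above 0, where 50.5% of all genes did. With the replicate block DESeq2 called 2 angiogenic genes in PS19 against WT, the growth factor gene Tgfb1 (0.98, adjusted p = 0.0185) and its receptor gene Tgfbr2 (0.91, adjusted p = 0.00952), where it called 1.63% of all genes higher. Tgfbr2 was also called in PS19;Lsd1Δ/+ against WT (0.85, DESeq2 adjusted p = 0.0138) and in PS19_HA against WT_HA (0.74, DESeq2 adjusted p = 0.0384). Which cells the Tgfb1 and Tgfbr2 reads came from was not tested in this bulk tissue. In PS19 against WT 9 of 10 microglia genes were above 0 as well (median 1.15). The blocked fit called 2 basement membrane genes in PS19;Lsd1Δ/+ against WT, Col18a1 and Lamb2, and 2 in PS19_HA against WT_HA, Lama5 and Nid2, where it called 2.63% and 1.11% of all genes higher. It called 1 further fibroblast gene, Aebp1, in PS19;Lsd1Δ/+ against WT. The adhesion gene Alcam was called as lower in PS19_HA against WT_HA, where 50 of 19290 genes were. The unblocked DESeq2 fit called 0.949%, 0.547% and 0.622% of all genes in PS19, PS19;Lsd1Δ/+ and PS19_HA, each against its control. In each of these comparisons the leukocyte adhesion list had 1 call of 10 genes. At 9 months it was Itgb2, the β2 integrin chain of the leukocyte receptors that bind ICAM1, which microglia also express. Itgb2 was at 17.7 ± 12 CPM in PS19 libraries, against 4.87 ± 1.42 CPM in WT libraries (SD, n = 4 each; log2 difference 1.83, DESeq2 adjusted p = 0.00389). It was at 15.6 ± 2.20 CPM in PS19;Lsd1Δ/+ libraries (1.65, DESeq2 adjusted p = 0.0257). At 11 months it was F11r, the gene of a junctional adhesion molecule, at 11.2 ± 1.72 CPM in PS19_HA libraries, against 5.10 ± 0.84 CPM in WT_HA libraries (SD, n = 3 each; log2 difference 1.15, DESeq2 adjusted p = 0.017). Lama5, a laminin chain gene, was the 1 basement membrane gene called there without the block, at 23.0 ± 4.36 CPM in PS19_HA libraries, against 9.37 ± 3.41 CPM in WT_HA libraries (1.31, DESeq2 adjusted p = 0.0427).

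Unblocked DESeq2 called glial activation genes in PS19 and PS19;Lsd1Δ/+ against WT, where it also called Icam1. It called them in PS19_HA against WT_HA too, where it did not call Icam1. In PS19 against WT, DESeq2 called 5 of 8 activated microglia genes (median log2 difference 3.74), 9 of 10 interferon response genes (2.99), 3 of 10 microglia genes (1.15) and 2 of 9 astrocyte genes (0.45), all higher. It called 0.949% of all genes there. Microglia genes summed to 580 to 852 CPM in PS19;Lsd1Δ/+ libraries, 375 to 1400 CPM in PS19 libraries and 277 to 380 CPM in WT libraries, and interferon response genes summed to 74.4 to 139 CPM in PS19;Lsd1Δ/+ libraries, 44.9 to 316 CPM in PS19 libraries and 21.4 to 27.8 CPM in WT libraries. At 11 months microglia genes summed to 399 to 454 CPM in PS19_rescue libraries, 332 to 801 CPM in PS19_HA libraries and 286 to 351 CPM in WT_HA libraries. The endothelial members summed to 383 to 519 CPM in PS19;Lsd1Δ/+ libraries, 308 to 673 CPM in PS19 libraries and 260 to 456 CPM in WT libraries. The microglia ranges of PS19 and WT libraries overlapped only between 375 and 380 CPM, the endothelial ranges between 308 and 456 CPM, and the interferon response ranges not at all. In PS19;Lsd1Δ/+ libraries the microglia range lay above the WT range, while the endothelial range overlapped it. Microglia ranges of PS19_HA and WT_HA libraries overlapped. By replicate number, microglia sums were 1400, 447, 375 and 1140 CPM in PS19 libraries and endothelial sums 673, 457, 308 and 388 CPM. In PS19_HA libraries they were 332, 569 and 801 CPM and 358, 383 and 391 CPM. Whether the Icam1 difference came from endothelium or from these glial cells was not tested.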

How the data were processed

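RNA from mouse hippocampus was sequenced after poly(A) selection, per the labels' protocols. The authors deposited 1 file of raw read counts per gene for each of the 23 libraries; per the submitters' processing notes the tools named for making them were FastQC 0.11.7, Trimmomatic 0.36.5, HISAT2 2.1.0, featureCounts 1.6.0.6 and DESeq2 2.11.40.2, with build GRCm38. Which gene annotation was counted, whether strand was used and how multi-mapped reads were treated were not given in the sources used here, so overlapping and antisense genes and the near-identical copies of Ly6a, Ly6c1 and Abcb1a (Abcb1b) are uncertain.

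Symbols and coordinates came from GENCODE M21 (GRCm38), promoters from RefSeq. Counts were tested with edgeR 4.0.16 in R 4.3.3: TMM factors, filterByExpr by group (minimum count 10, minimum total 15), robust quasi-likelihood fit, Benjamini-Hochberg over all genes tested, call at an adjusted p under 0.05. The 14 libraries of 9 months formed 1 fit, the 9 of 11 months another, and all 23 a fit for the difference between cohorts. DESeq2 1.42.0 was the other test. CPM values use TMM factors over the 23 libraries; an SD is between libraries. Total counts of 15451494 to 24644977 set the counting precision, and at these depths a gene at 1 CPM rests on few reads.

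Members and lists were chosen with earlier results of these data known. Members were given by library where the groups of a comparison did not overlap and the mean reached 1 CPM, or where edgeR or DESeq2 called them; the values of Acta2, Col1a2, Col3a1, Slc6a13, Col4a1, Dcn, Tie1 and Col1a1 were added after they had been seen, because they show single libraries or replicate sets. Context genes were named where called. Alternatives were other scaling, no filter, only the compared groups, a replicate block, a covariate for replicate sets, each set alone, each library left out, and libraries over 10% mitochondrial left out. Replicate numbers were checked for pairing by the correlation of libraries' deviations from their group means: same-numbered libraries correlated at 0.54 to 0.878 for PS19 and WT, 0.344 to 0.59 for PS19;Lsd1Δ/+ and WT, 0.299 to 0.52 for PS19;Lsd1Δ/+ and PS19, 0.148 to 0.348 for PS19_HA and WT_HA and 0.117 to 0.518 for PS19_rescue and WT_HA. Each of these exceeded 0.1, the cutoff set for treating the numbers as possible pairs, which no label gives. Some libraries still correlated better with another number. These were replicates 1, 2, 3 and 4 for PS19;Lsd1Δ/+ and PS19, and replicates 3 and 4 for PS19;Lsd1Δ/+ and WT. Replicate 2 did so for PS19 and WT and for PS19_rescue and WT_HA. At 9 months replicates 3 and 4 also stood apart from 1 and 2, so these correlations cannot tell pairs from replicate sets. No 2 libraries of a group agreed within counting noise. The scripts were checked on simulated data.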

Additional observations from a re-analysis of the deposited data

Results flagged for a closer look

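Each member was checked in each group of 4 libraries for a library far from the other 3, 102 groups in all, and 6 were marked. A rate of 1 in 20 would mark 5.1. Members share the same libraries, so this number cannot say whether the marks arose by chance. Of these 6, 4 fell in PS19 replicate 1: Acta2 at 18.2 CPM, with 4.36 to 5.33 CPM in the other 3 libraries, Col1a2 at 30.2 CPM (8.56 to 9.85), Col3a1, a fibrillar collagen chain gene, at 7.8 CPM (1.35 to 2.05) and Slc6a13 at 30.9 CPM (3.66 to 6.87). Col3a1 also stood apart in PS19;Lsd1Δ/+ replicate 2, at 5.54 CPM, with 1.26 to 1.72 CPM in the others. Kdr stood apart in WT replicate 2, at 21.1 CPM, with 12.6 to 13.9 CPM in the other WT libraries.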

How the results depend on the processing

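edgeR called 0 members under each alternative run. The fibroblast median changed sign without 1 library: in PS19_HA against WT_HA it was 0.06 without WT_HA replicate 2 in place of -0.36, and without PS19_rescue replicate 3 it was -0.09 against PS19_HA in place of 0.59 and -0.47 against WT_HA in place of 0.34. In PS19 against WT it was 0.25 and turned negative without PS19 replicate 1, as most fibroblast members then lay below 0. The smooth muscle median without PS19_rescue replicate 3 was -0.33 against PS19_HA in place of 0.34 and -0.57 against WT_HA in place of 0.16. The causes were not tested. DESeq2 called 1 member in PS19 against WT and 1 in PS19;Lsd1Δ/+ against WT, where it called 0.949% and 0.547% of all genes. With the replicate block it called 2, 3 and 2 members higher in PS19 against WT, PS19;Lsd1Δ/+ against WT and PS19_HA against WT_HA, where 1.63%, 2.63% and 1.11% of all genes were. With 1 library left out DESeq2 called 0 to 1 member in each of these 3 comparisons. The replicate block changed no other call of a member. Same-numbered libraries did not all pass that correlation cutoff for PS19_rescue and PS19_HA (0.064, 0.108 and 0.278) or for Lsd1Δ/+ and WT (0.077 and -0.002). In these comparisons 0 members were called with or without the block. Over the alternatives Icam1 had edgeR adjusted p of 0.0896 to 1.0 in PS19 against WT, 0.0857 to 0.865 in PS19;Lsd1Δ/+ against WT and 0.0752 to 0.842 in PS19_HA against WT_HA. Scaling to library totals moved the median of all genes by 0.12 in PS19 against WT, 0.20 in PS19;Lsd1Δ/+ against WT, 0.13 in Lsd1Δ/+ against WT and 0.11 in PS19_HA and in PS19_rescue against WT_HA. Members above 0 were then 34, 30, 23, 21 and 32 of 34. In the same order, all genes above 0 were 13774, 14391 and 11705 of 20122 at 9 months and 13113 and 13392 of 19290 at 11 months. With RLE factors 29 of 34 members were above 0 in PS19 against WT, where 8781 of 20122 genes were. Replicates 3 and 4 alone could not be fitted for Lsd1Δ/+, which lacks them, and the replicate sets were not applied at 11 months or between cohorts. Depth limited Tagln and Icam1, the WT minimum of Icam1 being 3 reads.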
